A study of Homo sapiens with 4 samples.

Results

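HLA genes and antigen presentation genes were compared between MDA-MB-231, a triple-negative human breast cancer cell line, and MDA-MB-231-LM2 (LM2), its subline that metastasises strongly to the lung. The genes were taken by name, but the set was chosen with earlier results of these data known. The class I genes are the heavy chains HLA-B, HLA-C, HLA-E and HLA-F, their light chain B2M and the peptide transporter subunit TAP1. The class II genes are the chains HLA-DRA and HLA-DPB1 and the invariant chain CD74. Together these genes are 9 of the 34555 named genes in the deposited table, and all their transcripts make up 14 of its 65423 rows. Each cell line has 2 labelled samples, but the table has a single value column for each, and neither labels nor methods say if that column pools them. The differences therefore have no replicate check, and no test was run. Both lines were grown untreated with fetal bovine serum, MDA-MB-231 in Leibovitz L-15 medium under air alone and LM2 in DMEM with added CO2, so culture conditions and cell line cannot be told apart. LM2 is a selected subline, so a difference describes that subline and not metastasis in general.

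Class I molecules display peptides from inside the cell to CD8+ T cells. A heavy chain pairs with B2M in the endoplasmic reticulum, TAP1 and TAP2 bring in peptides cut by the proteasome, and tapasin (TAPBP) helps to load them. Class II molecules display peptides taken up from outside to CD4+ T cells, and CD74 guards their groove until they reach the endosome. Class II genes are mostly expressed in professional antigen-presenting cells, but tumour cells can express them too. Class I and class II promoters share a module of X and Y boxes on which NLRC5 (class I) and CIITA (class II) act, and many of these genes respond to interferon.

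The bases before the transcription start are shown for 6 of the genes because class I and class II genes are known to share promoter boxes and most of these genes were lower in LM2. The X box itself was not searched. They are the 250 bases before the start in RefSeq's reference (GRCh38.p14), 5′ to 3′ on the gene's strand, and not sequence read from these cells. Capitals mark matches on either strand to 7 motifs: the Y box (an inverted CCAAT), the core of the cAMP response element (as in the X2 box), the core of the interferon-stimulated response element (2 GAAA repeats set apart by 2 bases), the STAT site, the NF-kB motif, the TATA box and the GC box. Overlapping matches share their capitals, and the letters searched, except for NF-kB, which is given by name, stand here or beside each share after the sequences.
HLA-B promoter, chr6:31357180-31357429, minus strand: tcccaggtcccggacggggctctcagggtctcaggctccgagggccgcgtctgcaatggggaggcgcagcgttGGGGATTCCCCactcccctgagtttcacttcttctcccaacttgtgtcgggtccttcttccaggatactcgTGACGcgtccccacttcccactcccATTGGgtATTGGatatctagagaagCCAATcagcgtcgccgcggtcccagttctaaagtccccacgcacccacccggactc
HLA-C promoter, chr6:31272093-31272342, minus strand: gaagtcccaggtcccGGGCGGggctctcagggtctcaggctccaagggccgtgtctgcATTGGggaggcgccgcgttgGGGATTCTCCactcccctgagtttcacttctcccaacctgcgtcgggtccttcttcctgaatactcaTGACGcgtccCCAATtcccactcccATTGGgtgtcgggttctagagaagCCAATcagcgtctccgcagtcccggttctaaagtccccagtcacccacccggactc
B2M promoter, chr15:44711267-44711516, plus strand: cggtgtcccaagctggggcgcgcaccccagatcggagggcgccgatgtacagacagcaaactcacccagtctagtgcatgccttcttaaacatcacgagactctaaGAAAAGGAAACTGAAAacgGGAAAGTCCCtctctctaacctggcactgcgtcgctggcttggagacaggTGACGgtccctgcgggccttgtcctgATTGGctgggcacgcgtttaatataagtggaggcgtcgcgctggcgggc
TAP1 promoter, chr6:32853705-32853954, minus strand: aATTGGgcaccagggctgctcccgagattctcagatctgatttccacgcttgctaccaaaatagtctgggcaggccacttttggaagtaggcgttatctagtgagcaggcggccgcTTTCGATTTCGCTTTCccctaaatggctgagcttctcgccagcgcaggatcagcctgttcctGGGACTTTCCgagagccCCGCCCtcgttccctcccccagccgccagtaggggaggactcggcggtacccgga
HLA-DPB1 promoter, chr6:33075740-33075989, plus strand: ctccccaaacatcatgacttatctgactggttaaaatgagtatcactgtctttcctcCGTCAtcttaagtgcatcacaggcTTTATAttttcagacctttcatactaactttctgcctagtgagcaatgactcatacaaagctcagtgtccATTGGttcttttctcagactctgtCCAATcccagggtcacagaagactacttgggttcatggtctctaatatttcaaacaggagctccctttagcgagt
CD74 promoter, chr5:150412911-150413160, minus strand: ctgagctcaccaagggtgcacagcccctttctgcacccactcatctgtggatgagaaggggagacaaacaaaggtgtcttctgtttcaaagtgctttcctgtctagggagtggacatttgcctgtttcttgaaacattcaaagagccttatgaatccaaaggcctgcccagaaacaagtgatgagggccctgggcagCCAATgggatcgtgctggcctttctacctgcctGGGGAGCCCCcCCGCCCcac

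RefSeq windows were found for 7 of the 9 genes, all but HLA-E and HLA-DRA. The Y box letters, searched as ATTGG on either strand, were present in 7 of the 7 windows, against 32.0% of 35116 promoter windows of the same length. In CD74 the only match read CCAAT on the gene's strand. In TAP1 the only match lay at the far end of the window, from 249 bases before the start. The cAMP response core, searched as TGACG, was found in 4 of the 7 windows and in 21.2% of all. In HLA-B and HLA-C this core began 106 and 105 bases before the start, with Y boxes after it, and in B2M it began 75 bases before the start with a Y box at 49. HLA-C also held a Y box match before the core, from 192 bases before the start. In HLA-DPB1 the core began 193 bases before the start, with Y box matches after it from 99 and 75. The NF-kB motif was found in 5 of the 7 and in 5.21% of all. The interferon-stimulated core was found in 3 of the 7, namely HLA-F, B2M and TAP1, and in 3.02% of all. B2M and TAP1 each held 2 overlapping copies of that core. The STAT site, searched as TTCNNNGAA, was found in 0 of the 7 windows and in 6.57% of all. These counts take the first window of each gene, and a second TAP1 window, not printed, held a STAT site from 189 bases before its start. The TATA box, searched as TATAAA, was found in 1 window, that of HLA-DPB1, and in 10.7% of all. The GC box, searched as GGGCGG, was found in 3 windows and in 42.6% of all. A match describes these letters in the reference and is not evidence of binding.

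**Figure D1:**
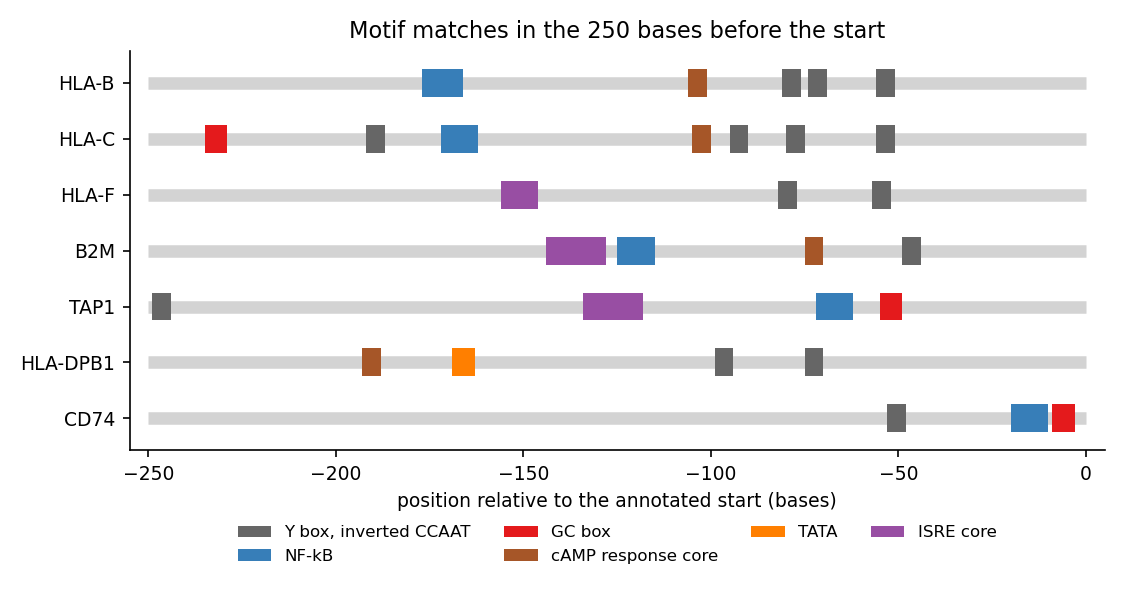
Motif matches in the promoter windows of 7 of the 9 genes, with the distance before the transcription start in bases on the horizontal axis, 1 line per gene and 1 colour per motif. A match to the Y box letters, in either orientation, stands in every window. The cAMP response core stands before Y box matches in HLA-B, HLA-C, B2M and HLA-DPB1, and HLA-C also has a Y box match before its core.

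The MDA-MB-231 column summed to 130689252 counts and the LM2 column to 128985870, so their depth was nearly equal. Each ratio below divides the LM2 count by the parental count and by the ratio of these totals, with an exact (Clopper-Pearson) 95% interval that covers counting error only. The line's own markers were present in both columns (VIM 153536 and 262027 counts, EPCAM 361 and 355). Of 12 blood cell markers, 4 were at 0 in both columns, among them the B cell marker MS4A1, the T cell marker CD3E and the myeloid and NK cell adaptor TYROBP. PTPRC, the pan-leukocyte marker, had 8 and 7 counts. CD14 (199 and 114 counts), CSF1R (187 and 128) and LYZ (64 and 22) had the most counts and were lower in LM2. CD79A (6 and 10), ITGAM (0 and 5) and FCER1G (0 and 3) had the higher count in LM2. The summed RPKM (count scaled by length and column total) of the whole list was 1.66 in the parental line and 1.02 in LM2.

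Of the 9 genes, 8 had a mean of at least 50 counts. Of these 8, 4 were over 2-fold lower in LM2 (HLA-B, HLA-C, HLA-DRA and HLA-DPB1) and 0 were over 2-fold higher. Among all 15450 named genes at this minimum, 6.86% lay over 2-fold lower in LM2 and 4.58% lay over 2-fold higher. The 4 lower genes all lie in the stretch from HLA-F to HLA-DPB1 on chromosome 6. There, of 78 genes in no list used here with enough counts, 27 (34.6%) were over 2-fold lower. The log2 ratio was below 0 in 8 of the 8, with a median of -1.11, against 0.00 over all named genes. The spread among the genes was wide, from HLA-B at the bottom to B2M, which was nearly level.

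**Figure D2:**
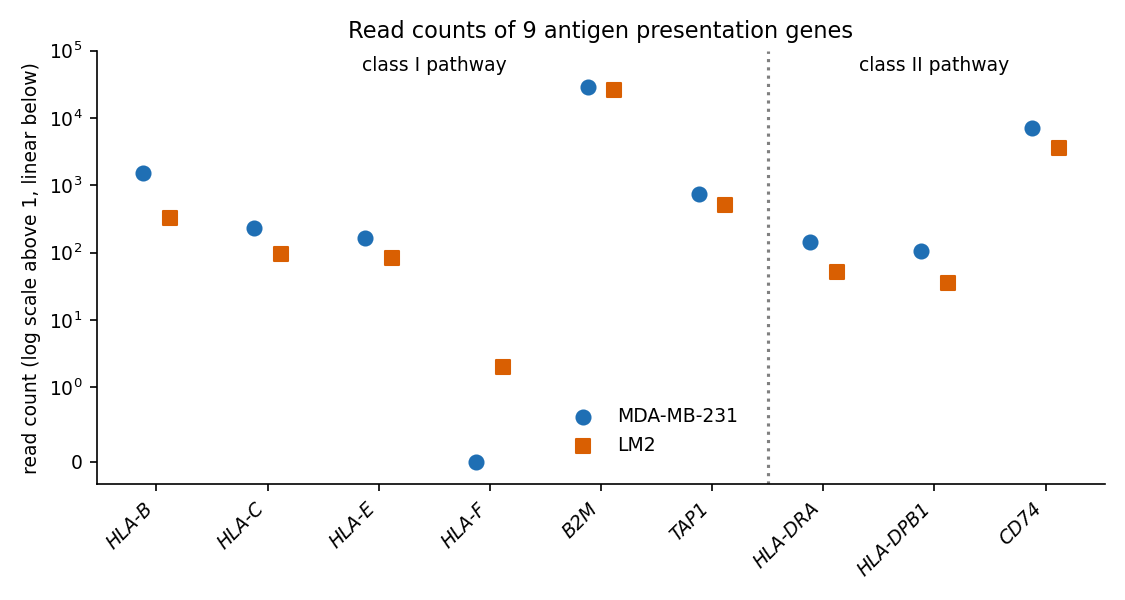
Read counts of the 9 genes in MDA-MB-231 and LM2, on an axis that is logarithmic above 1 and linear below, 1 point per column. LM2 lies below MDA-MB-231 for 8 genes and not for HLA-F (0 against 2 counts), and the gap on this axis is widest for HLA-B (1507 against 326 counts) and narrowest for B2M.

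HLA-B, a classical heavy chain that presents peptides to T cells, was counted 1507 times in the parental line and 326 times in LM2. It was 4.56-fold lower in LM2 (interval 4.04 to 5.16), a log2 ratio of -2.19. HLA-C, a classical heavy chain that is also read by inhibitory receptors of natural killer (NK) cells, had 230 and 95 counts. It was 2.39-fold lower (1.87 to 3.07), with identical counts in its 2 rows. HLA-E, a non-classical heavy chain that shows leader peptides of other class I chains to NK cells, had 165 and 83 counts and was 1.96-fold lower (1.5 to 2.59). The interval for HLA-B lay below those for HLA-C and HLA-E. The log2 ratio of HLA-B was below that of HLA-C by -0.93 (-1.33 to -0.53) and below that of HLA-E by -1.22 (-1.65 to -0.78). HLA-C and HLA-E could not be told apart by counting error (-0.28, interval -0.82 to 0.25).

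HLA-F, a non-classical heavy chain, was at 0 counts in the parental line and at 2 in LM2 in each of its 3 rows. A count of 0 allows up to 3 counts, which is an RPKM of 0.00459 at the listed length and 0.0260 at the annotated length. Both counts were at or under 3, though that limit is for a count of 0 and the 2 counts of LM2 allow more. No fold is given. HLA-F was thus near 0 in both columns. How reads that match several listed copies were counted is not known, so these counts need not give its expression.

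B2M, the light chain that pairs with class I heavy chains, had 28485 counts in the parental line and 26104 in the subline. It was 1.08-fold lower (1.06 to 1.10), a log2 ratio of -0.11. Relative to B2M within the same column, HLA-B was lower by -2.08 on the log2 scale (-2.26 to -1.91), HLA-C by -1.15 (-1.51 to -0.80) and HLA-E by -0.87 (-1.26 to -0.48). The heavy chains and their light chain thus differed in their ratios by more than counting error. These within-column differences do not depend on how the columns were scaled.

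TAP1, which with TAP2 moves peptides into the endoplasmic reticulum, had 754 and 508 counts and was 1.46-fold lower (1.31 to 1.64). TAP2, in its row with more counts, had 3899 and 2642 and was 1.46-fold lower as well (1.39 to 1.53). With that row, the log2 ratio of TAP1 minus that of TAP2 was -0.01 (-0.19 to 0.17). The other TAP2 row (NM_018833) had 2271 and 1734 counts and was 1.29-fold lower (1.21 to 1.38), so the match depends on the row. TAP1 was lower relative to B2M by -0.44 (-0.61 to -0.28). For the neighbouring immunoproteasome subunit PSMB9 (106 and 61 counts), the log2 ratio of TAP1 minus its own was 0.23 (-0.27 to 0.74), an interval that held 0. For PSMB8 in its row with more counts (686 and 522), it was -0.18 (-0.41 to 0.06). The other PSMB8 row (NM_148919) had 176 and 155 counts and a log2 ratio of -0.16 (-0.49 to 0.16), against -0.55 (-0.72 to -0.39) for TAP1.

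HLA-DRA, the invariant alpha chain of HLA-DR, had 146 and 52 counts and was 2.77-fold lower in LM2 (2.01 to 3.88). HLA-DPB1, the beta chain of HLA-DP, had 105 and 35 counts and was 2.96-fold lower (2.0 to 4.47). The log2 ratios of these chains differed by 0.10 (-0.66 to 0.86), so they could not be told apart. Among 13 other class II chain genes of the list, 11 had the lower count in LM2, 0 had the higher count and 2 were at 0 in both columns, and 9 of the 13 were under the minimum. HLA-DPA1, the partner of HLA-DPB1, had 48 and 25 counts, and HLA-DRB1, the partner of HLA-DRA, had 53 and 39 in its row with more counts. That row's interval held no difference (log2 ratio -0.42, interval -1.06 to 0.20), while the other HLA-DRB1 row (NM_002124) had 14 and 3 counts and a log2 ratio of -2.20 (-4.64 to -0.36). HLA-DRB5 had 30 and 3 counts and HLA-DRB3 had 26 and 0, both chosen after their values were seen. All the counts named so far are low. Of the 13, HLA-DOB (1851 and 1158 counts) and HLA-DQB2 (827 and 643) had the most, and were also chosen after their values were seen. They were 1.58-fold lower (1.47 to 1.70) and 1.27-fold lower (1.14 to 1.41), less than HLA-DRA and HLA-DPB1.

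CD74 was the most abundant class II pathway gene among the 9. Its 3 rows had 7124 and 3626 counts (NM_001025159, the long form), 7055 and 3595 (NM_004355) and 6816 and 3482 (NM_001025158). The fold lower in LM2 was 1.94, 1.94 and 1.93, and the interval of the first was 1.86 to 2.02. The rows share most of their exons and so most of their reads, and they are not independent. HLA-DRA was lower relative to CD74 by -0.52 (-1.0 to -0.05) and HLA-DPB1 by -0.61 (-1.21 to -0.04), and CD74 was lower relative to B2M by -0.85 (-0.91 to -0.79).

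The long form of CD74 carries an extra exon, which encodes a thyroglobulin type-1 domain known to inhibit cathepsins. The exon is shown because the listed lengths of NM_001025159 and NM_004355 differ by 192 bases, which is its length. It is coding throughout in GENCODE release 29 (GRCh38) and is printed 5′ to 3′ in lower case, with no part marked.
CD74 exon, chr5:150403121-150403312, minus strand: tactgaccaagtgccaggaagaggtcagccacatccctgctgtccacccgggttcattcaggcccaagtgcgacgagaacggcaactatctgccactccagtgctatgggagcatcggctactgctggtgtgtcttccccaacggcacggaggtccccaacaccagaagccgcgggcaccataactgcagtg
The longer row held 69 more counts than the shorter in the parental line and 31 more in LM2, an RPKM over these bases of 2.75 and 1.25. That is 7.58% and 6.69% of the RPKM of the shorter row. Reads of the exon that also reach shared exons may count in both rows, so the difference may miss part of them. The extra counts were 2.20-fold lower in LM2 (1.42 to 3.47), an interval that holds the fold of the whole gene. A change in the share of the long form was not detectable at this depth.

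Levels between genes were compared per length. The listed length of each of the 7 genes on chromosome 6 was between 4.66 and 20.6 times the annotated transcript length, as for HLA-B with 9432 listed and 1547 annotated bases. HLA-DPB1 had the largest such ratio, with 32188 listed and 1560 annotated bases, though the matched GENCODE model may be shorter than the RefSeq mRNA. B2M (987 and 943 bases) was close to its annotated length, and so was the NM_004355 row of CD74 (1489 and 1449). The deposited RPKM of the chromosome 6 genes is lower by the same factor, for HLA-B 1.22 and 0.268. The sources used here do not say how reads that match several listed copies were counted. The ratio between the lines does not use the length.

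With the annotated length in place of the listed one, B2M stood at an RPKM of 231.1 in the parental line and 215 in LM2, and CD74 at 37.3 and 19.2. HLA-B followed with 7.45 and 1.63 and TAP1 with 1.95 and 1.33. The order of these 4 was the same in both lines, and neighbours did not overlap in their counting intervals. HLA-C stood at 1.15 and 0.480, HLA-DRA at 0.873 and 0.315, HLA-E at 0.485 and 0.247, and HLA-DPB1 at 0.515 and 0.174. Among these, the intervals of HLA-C and HLA-DRA overlapped in each line, as did those of HLA-E and HLA-DPB1, and HLA-DRA overlapped HLA-E and HLA-DPB1 in LM2 alone. HLA-B was thus the heavy chain with the highest level among the 9 genes in both lines. In deposited RPKM, HLA-G, a heavy chain outside the 9, stood above HLA-B in LM2 (0.817 against 0.268). In the parental line HLA-G stood below HLA-B (0.933 against 1.22).

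**Figure D3:**
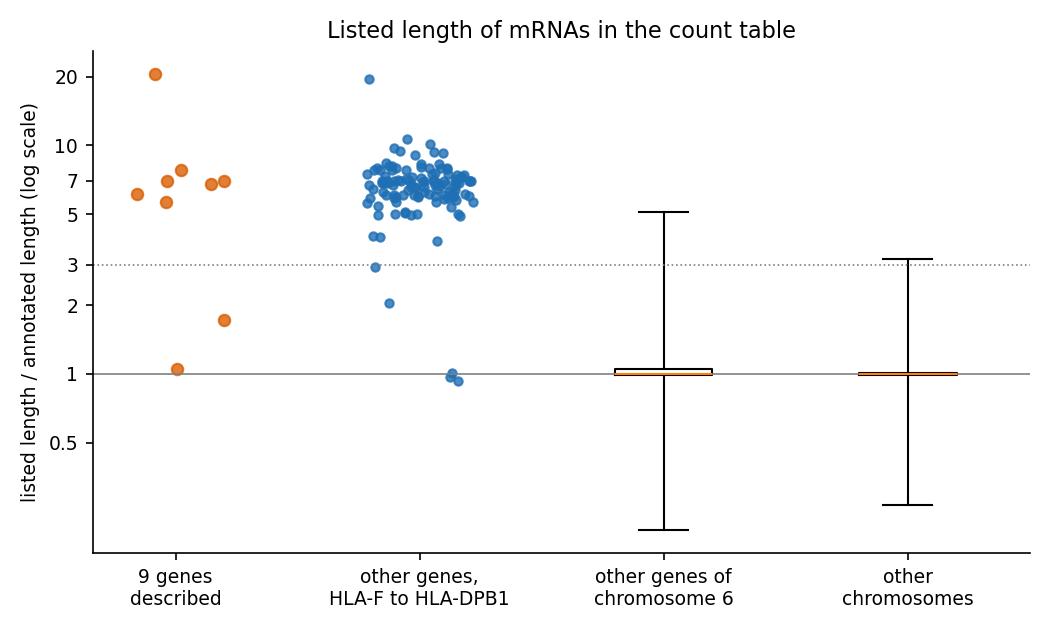
Listed length over annotated length, on a log axis, for the 9 genes and the other genes between HLA-F and HLA-DPB1, 1 point per gene, and as boxes with whiskers from the 1st to the 99th percentile for the rest of chromosome 6 and for other chromosomes, with a dotted line at 3. The CD74 point is its long-form row, which was matched to a shorter model. Genes of the HLA region are listed at a median of 6.80 times their annotated length, the rest of chromosome 6 at 1.0.

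The listed lengths followed position. From HLA-F to HLA-DPB1, the HLA genes and TAP1 included, 120 of 125 genes (96.0%) were listed at over 3 times their annotated length, against 36 of 857 (4.2%) on the rest of chromosome 6 and 1.15% on all other chromosomes. The ratios followed position too. In the same region 95 genes had enough counts, and their median log2 ratio was -0.84, with 33 over 2-fold lower and 0 over 2-fold higher. The median was -0.22 on the rest of chromosome 6 and 0.01 on other chromosomes. Of 100 genes of this region in no list used here, 78 had enough counts, and of these 27 (34.6%) were over 2-fold lower and 72 were below 0, with a median of -0.90. The lower counts of the HLA genes therefore stood among lower counts of neighbours outside these lists, and the part of the region in the result was not tested.

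Around each gene, the 30 nearest protein-coding genes with enough counts were taken, some of which are other genes named here. The median log2 ratio of the neighbours of HLA-B was -1.04, and 0 of the 30 lay below HLA-B itself. HLA-C had the same median around it, with 11 of 30 below it, and HLA-E had -1.05, with 16 of 30 below it. HLA-B was lower than all of its neighbours, while HLA-C and HLA-E lay within theirs. Around HLA-DRA the median was -0.74 and around HLA-DPB1 -0.60, with 2 of 30 below each gene. Around TAP1 it was -0.80, with 19 of 30 below it, so that TAP1 lay above the middle of its neighbours. CD74 on chromosome 5 and B2M on chromosome 15 had neighbours at 0.17 and 0.15, and 2 of 30 lay below CD74 and 9 of 30 below B2M.

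**Figure D4:**
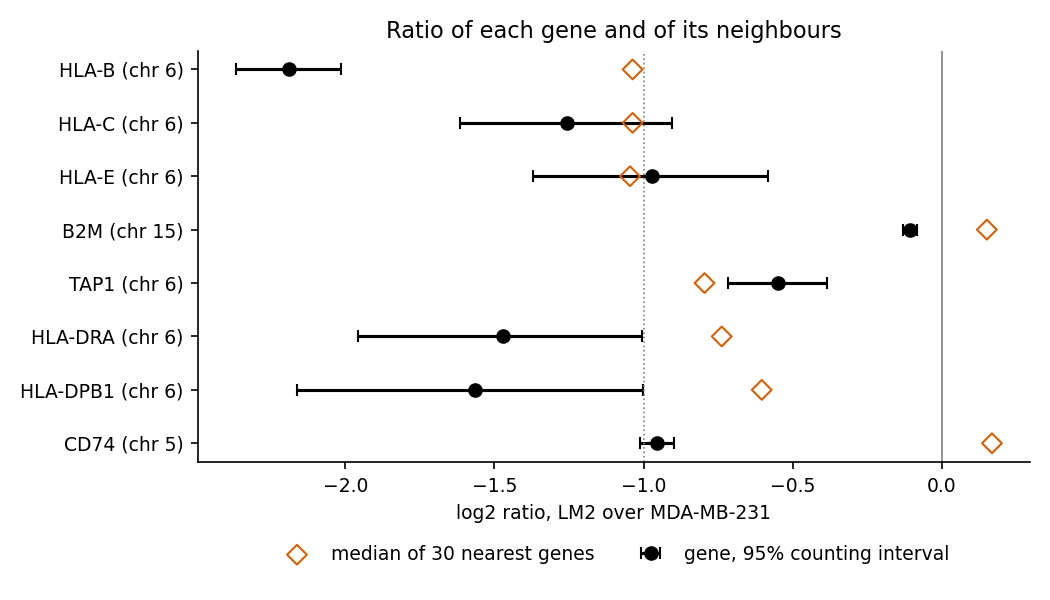
Log2 ratio of LM2 over MDA-MB-231 for the 8 genes with enough counts, as points with 95% counting intervals, and the median of the 30 nearest genes as open diamonds. HLA-B lies well left of its neighbours (-2.19 against -1.04), HLA-C and HLA-E hold their neighbours' median within their intervals, and the neighbours of B2M and CD74 lie right of 0.

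In RefSeq's reference (GRCh38.p14), HLA-F lies at chr6:29723434-29738532, HLA-E at chr6:30489509-30494194, HLA-C at chr6:31268749-31272092, HLA-B at chr6:31353875-31357179, HLA-DRA at chr6:32439887-32445046, TAP1 at chr6:32845209-32853704 and HLA-DPB1 at chr6:33075990-33089696. CD74 lies at chr5:150401639-150412910 and B2M at chr15:44711517-44718145. The class I chains are close relatives, and reads may be shared between them. The coding sequences of HLA-B and HLA-C were 92.5% identical in the reference, HLA-B and HLA-E 86.8%, and HLA-C and HLA-E 86.7%. Of 50-base windows of HLA-B, matched on either strand, 21.0% also occurred in transcripts of another gene. The share was 6.79% for HLA-C, 5.76% for HLA-E and 31.4% for HLA-F, while HLA-DRA, B2M and CD74 had 0. Most of these HLA-B windows (277 of 314) and HLA-F windows (363 of 387) matched AL671883.2 and AL645939.1, overlapping genes of the opposite strand. For HLA-B and HLA-F the share therefore does not measure likeness between class I chains alone. HLA genes also vary greatly between people, and the alleles of this line were not analysed here. Whether counting used strand is also not stated. Exons of the opposite strand cover 24.0% of HLA-B, 15.4% of TAP1 (by PSMB8-AS1), 6.15% of HLA-DPB1 (by HLA-DPA1) and 35.7% to 47.5% of HLA-F, and reads from both strands may be mixed there. PSMB8-AS1 itself (NR_037173) had 326 and 252 counts.

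Other genes of the pathway were taken from 12 lists. The tallies past 2-fold below stand beside 6.86% lower and 4.58% higher over all named genes with enough counts. Among the other class I heavy chains, HLA-G, a non-classical chain, had 965 and 834 counts and was 1.14-fold lower (1.04 to 1.25).

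Of 12 peptide loading and trimming genes, 1 passed 2-fold downwards and 0 upwards, with a median log2 ratio of -0.40. TAPBP, which bridges TAP and the heavy chain, had 130 and 58 counts and was 2.21-fold lower (1.61 to 3.07). ERAP1, which trims peptides to length, had 4956 and 3035 counts and was 1.61-fold lower (1.54 to 1.69). CANX, a chaperone of new glycoproteins, had the highest ratio of the list, with 68485 and 79473 counts. None of the 6 immunoproteasome genes passed 2-fold, with a median of -0.14, and the 9 constitutive proteasome subunits had a median of 0.19 with 0 past 2-fold. PSMB10, the remaining catalytic immunoproteasome subunit, had 1445 and 1307 counts, POMP, the assembly factor, had the highest ratio with 2684 and 3220, and PSMB1 had the lowest of the constitutive list with 9090 and 7010 against the highest, PSMA1, with 5964 and 7297.

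Among class II chains and processing genes, 11 of 20 had enough counts, with 1 over 2-fold lower, 0 higher and a median of -0.28. The lower one was IFI30, a reductase that unfolds antigens in the endosome, with 1644 and 761 counts and 2.13-fold lower (1.96 to 2.33). CTSS, a protease that cleaves CD74, had 908 and 836 counts. HLA-DMA, which helps to exchange the groove's peptide, had 26 and 16, and CD63, an endosomal tetraspanin, had the highest ratio with 10797 and 16523.

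Regulators of these promoters had a median log2 ratio of -0.03. Of 21 with enough counts, 1 was over 2-fold lower and 0 were over 2-fold higher. NLRC5, the class I transactivator, had 995 and 1034 counts, RFX5, a subunit that binds the X box, 4677 and 5684, and IRF1, an interferon-induced activator, 2757 and 2663. The most abundant CIITA row, a short Ensembl transcript, had 857 and 577 counts and was 1.47-fold lower (1.32 to 1.63), but the full RefSeq mRNA (NM_000246) had 543 and 473, a log2 ratio of -0.18 whose interval held no difference. IFNGR2, a chain of the interferon-gamma receptor, was the lower one, with 2337 and 931 counts, 2.48-fold lower (2.30 to 2.68). PRDM1, a repressor of CIITA, had the highest ratio, with 85 and 151 counts.

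**Figure D5:**
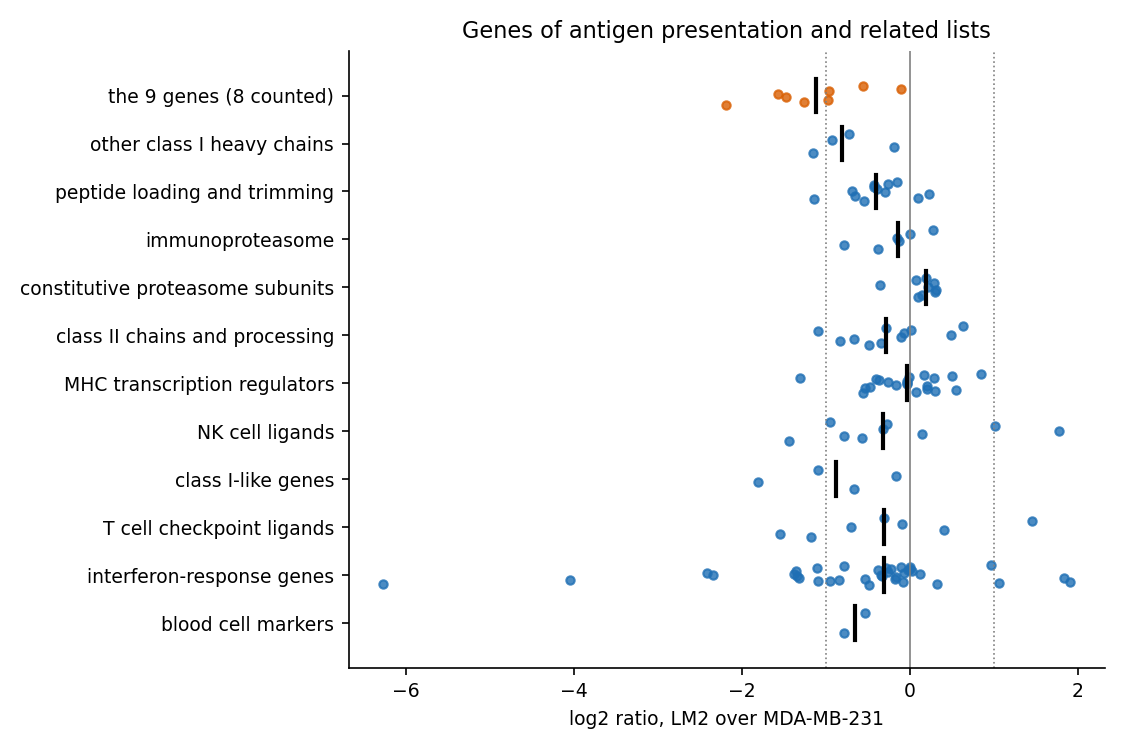
Log2 ratios of LM2 over MDA-MB-231 by gene list, 1 point per gene with a mean of at least 50 counts, with the median of each list as a bar, a solid line at 0 and dotted lines at 2-fold. The 9 genes sit lower (median -1.11) than the regulators (median -0.03) and the constitutive proteasome subunits (median 0.19). Most of the 9 lie from HLA-F to HLA-DPB1, where genes in no list had a median of -0.90.

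Ligands read by NK cells went both ways. Of 9 with enough counts, 1 passed 2-fold downwards and 2 upwards. MICA had 347 and 126 counts and was 2.72-fold lower (2.21 to 3.36), MICB had 552 and 368, and RAET1E had 136 and 460 and was 3.43-fold higher (2.82 to 4.18). MICA and MICB lie in the same region as HLA-B. Of 4 class I-like genes with enough counts 2 were over 2-fold lower, led by FCGRT, the neonatal Fc receptor that also pairs with B2M, with 1763 and 499 counts and 3.49-fold lower (3.16 to 3.86), and HFE had the highest ratio with 786 and 691.

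Of 7 T cell checkpoint ligands with enough counts, 2 passed 2-fold downwards and 1 upwards. PDCD1LG2 had the lowest ratio with 365 and 124 counts, and TNFSF4 the highest with 99 and 269. Of 36 interferon-response genes with enough counts, 10 passed 2-fold downwards and 3 upwards, against 6.86% and 4.58% of all named genes. Their median was -0.31, from IFI27 with 1329 and 17 counts to IFI44L with 74 and 275. CD14 (199 and 114 counts) and CSF1R (187 and 128) were the 2 blood cell markers with enough counts, both with the lower count in LM2. LYZ, a myeloid marker under the minimum, had 64 and 22 counts and was 2.87-fold lower (1.74 to 4.90). The part of these markers in the class II result was not tested. KRT19, the lowest of the cell line markers, had 25837 and 2272 counts.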

How the data were processed

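RNA of MDA-MB-231 and LM2 cells was compared, with samples grouped by the cell line in the labels. Per the labels, the authors used bcl2fastq and TopHat2 (version 2.0.13) with hg19 (GRCh37). The program, strand setting and annotation behind the counts were not given in the sources used here. Deposited by the authors were whole-number counts per transcript, used unchanged, and RPKM values, which equal count over listed length and column total to a relative difference of at most 4.98e-06. Reads of overlapping transcripts can enter the totals more than once.

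The members and lists were chosen with earlier results of these data known. Named are the 9 genes, fixed genes of the lists, and the highest and lowest ratio of each list; other genes were chosen after their values were seen, and some genes of the lists are not reported here. The row with the highest mean count stood for a gene. Genes past 2-fold were tallied only where the mean reached 50 counts. Medians had 0.5 counts added. Intervals (Clopper-Pearson for ratios, Poisson for levels, 95%) and the limit of 3 counts cover counting error only. The edgeR test set for single libraries needs replicate columns and was not possible here.

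Symbols and annotated lengths came from RefSeq (GRCh38.p14) and GENCODE release 29. Coordinates are those of GRCh38, and none were converted. Coding sequences were aligned in place of proteins, which were not used here. The calculation was tested on simulated data with counting noise only, the kind that the intervals assume. That test does not cover replicate spread or reads shared between rows. Alternatives were TMM and upper-quartile factors (edgeR 4.0.16), DESeq2 1.42.0 size factors, pseudocounts on RPKM, other minimums and other rows. The software was Python 3.11.15 with pandas 2.3.3, Biopython 1.88, scipy 1.17.1, matplotlib 3.10.9 and numpy 2.4.6, and R 4.3.3.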

Additional observations from a re-analysis of the deposited data

How the results depend on the processing

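Under TMM, upper-quartile and DESeq2 scaling, and with other rows or the sum of rows standing for a gene, the log2 ratios of the 8 genes with enough counts stayed within their counting intervals, and the counts past 2-fold stayed at 4 lower and 0 higher. A pseudocount on the deposited RPKM shrinks ratios of genes with low RPKM by construction. On the log2(RPKM + 0.1) and log2(RPKM + 1) scales the differences were -1.85 and -0.81 for HLA-B, -0.65 and -0.12 for HLA-C, -0.33 and -0.048 for HLA-E, -0.63 and -0.11 for HLA-DRA, -0.20 and -0.023 for HLA-DPB1, and -0.37 and -0.095 for TAP1, and 1 and 0 of the 9 genes passed 2-fold lower. With RPKM at the annotated length and 0.1 added, an alternative chosen after seeing the data, HLA-C was at -1.10, HLA-DRA at -1.23 and HLA-DPB1 at -1.17, and 4 genes passed. A minimum mean of 200 counts left 1 gene over 2-fold lower, since fewer genes were counted, and no minimum gave 1 over 2-fold higher (HLA-F, with 0 and 2 counts). Over the 12 lists, 20 genes were over 2-fold lower and 6 higher, beside 6.86% and 4.58% of all named genes with enough counts. The tallies became 7 and 1 on the log2(RPKM + 1) scale, 3 higher at the minimum of 200 and 12 higher with no minimum. Shares over all named genes were computed under the main setting only, so these other tallies have no such share beside them. Replicates could not be left out. No paired analysis was possible because the table holds 1 column per cell line with no replicate numbers.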
